A study of Homo sapiens with 8 samples.

Results

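After knockdown of CEBPB in A549 cells, 662 stretches of chromatin carried H3K27ac peaks over 1 kb or more with both CEBPB siRNAs and no peak in either control library. They were 1.09% of the 60669 regions obtained by merging the 4 peak lists on chromosomes 1 to 22 and X. A region was chosen by its peak calls: it had 1000 bp or more of called peak length with CEBPB siRNA-1 and with CEBPB siRNA-2, and no peak in control 1 or control 2. The absence from the controls and the length are therefore the rule and not a result. Of 16113 regions with that length in both knockdown lists, the 662 were 4.11%. At any length, 30128 regions had peaks in both knockdown lists, and 4103 of these (13.6%) had no control peak. In the other direction, 585 of 17133 regions (3.41%) with 1000 bp or more in both controls had no knockdown peak, and these are called longer lost regions below. With siRNA-2 left out, so that only the siRNA-1 list had to reach 1000 bp, there were 1622 gained regions. The count was 842 without siRNA-1, 858 without control 1 and 843 without control 2.

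A549 is an established human lung adenocarcinoma line with constitutive activity of NRF2, a regulator of the oxidative stress response. The 4 libraries were 1 each for siRNA-1 and siRNA-2 against CEBPB and 2 for a control siRNA, harvested 48 h after transfection. All were immunoprecipitated with an H3K27ac antibody, and 4 input libraries of the series were not analysed here. The siRNA is what separates the groups, and the labels do not state whether the controls were separate cultures. The spread between controls may thus be technical, while that between the knockdown libraries also holds any difference between the siRNAs. How far each siRNA lowered CEBPB was not measured here.

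Acetylation of lysine 27 on histone H3 is written by the coactivators p300 and CBP, and marks promoters and enhancers in use. The mark lies on nucleosomes that flank the bound core of an element, so an acetylated stretch usually spans several nucleosomes. C/EBPβ, the product of CEBPB, is a basic leucine zipper factor that binds DNA as a dimer, with its own family or with partners such as ATF4, and can recruit these coactivators. The study asks which enhancers of NRF2-activated lung cancer cells need CEBPB, and the gained regions are those called when it is targeted. In cultures sequenced as a whole, more cells with the mark and more mark per cell cannot be told apart.

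The lists held 45537 and 45651 peaks in the controls, 47370 with siRNA-1 and 48216 with siRNA-2. Called length was longest with siRNA-1, at 70.4 Mb, and shortest with siRNA-2, at 61.7 Mb, with the controls at 67.9 and 62.1 Mb. Sequencing depth is unknown, and a missing peak is not a missing mark. The fold enrichment and −log10 q of each peak were taken from the authors' lists and serve only to describe and rank regions within a list. Positions are on build hg19, for which no annotation was used here. Genes beside the regions are therefore not named, and the A549 label was not checked against marker genes.

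Most gained regions were 1 to 3 kb long. Called length with siRNA-1 ran from 1002 to 7498 bp with a median of 1906 bp, and with siRNA-2 from 1002 to 5971 bp with a median of 1577 bp. In 310 regions both libraries had 1500 bp or more, in 114 both had 2000 bp or more, and in 20 both had 3000 bp or more. siRNA-1 gave the longer call in 476 of 662 regions (71.9%). That library was also the longer in 66.7% of 15075 longer kept regions, those called in all 4 libraries with 1000 bp or more in both knockdown lists. The shorter call was a median of 76.7% of the longer one in gained regions and 86.4% in longer kept regions. Between the controls it was 86.0% in longer lost regions and 91.8% in regions called in all 4 libraries with 1000 bp or more in both controls. Lengths with the 2 siRNAs had a Spearman's rho of 0.42 across the 662 regions, which all come from the same pair of libraries. For −log10 q with the 2 siRNAs it was lower, at 0.26. Within a list, length also followed −log10 q, with a rho of 0.73 for siRNA-1 and 0.54 for siRNA-2.

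**Figure D1:**
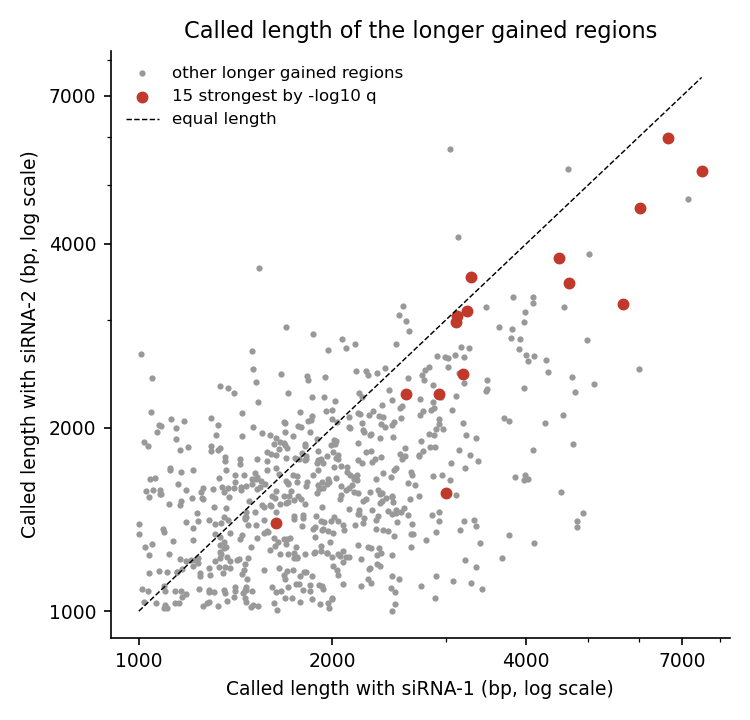
Called H3K27ac peak length in each longer gained region with siRNA-1 (x axis, bp, log scale) and siRNA-2 (y axis, bp, log scale). Each of the 662 points is a region, red points are the 15 strongest, and the dashed line marks equal length; 476 points lie below the line, being longer with siRNA-1.

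The 1000 bp threshold passes through a dense part of the range. The shorter of the 2 calls was under 1100 bp in 88 gained regions, and 121 more regions without a control peak missed the threshold by at most 100 bp. Just inside it lay chr14:94432000-94433336, chr22:46849433-46851904 and chr12:9825678-9827068, each with a shorter call of 1002 bp, then chr17:5418819-5420459 with 1006 bp and chr7:133389236-133391871 with 1009 bp. Just outside it lay chr8:84045988-84047587, chr16:66520413-66522074 and chr5:87733172-87734581 with 998 bp, chr1:203146024-203148015 with 996 bp and chr22:29983023-29985681 with 993 bp. A further 803 regions without a control peak reached 1000 bp in 1 knockdown list only, 611 of them with siRNA-1.

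Most gained regions ranked above the list median of −log10 q, 565 of 662 (85.3%) with siRNA-1 and 523 (79.0%) with siRNA-2. This is in part the rule, because length followed −log10 q and the 1000 bp minimum exceeds the median peak width. That width was 758 bp with siRNA-1 and 670 bp with siRNA-2. Median −log10 q was 28.6 with siRNA-1 and 18.4 with siRNA-2 in gained regions, against 68.2 and 53.0 in longer kept regions. By −log10 q, the best peak of a region had a median percentile of 67.5 in the siRNA-1 list, with a highest of 96.8. In the siRNA-2 list the median was 61.4 and the highest 92.9. Fold enrichment had a median of 10.6 with siRNA-1, with a highest value of 54.0, and of 8.71 with siRNA-2, with a highest value of 28.6. Longer kept regions had medians of 18.7 and 16.8 in the same lists. Both knockdown lists gave a −log10 q of at least 10 in 527 regions (79.6%), of at least 20 in 229 and of at least 50 in 20. Together the gained regions held 1.40 Mb of called length with siRNA-1, 1.99% of that list, and 1.13 Mb with siRNA-2, 1.83% of that list.

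Ranked by the lower of the 2 best −log10 q values, the strongest gained region was chr3:13256107-13262115. It was called over 6009 bp with siRNA-1 (51.2-fold) and 4584 bp with siRNA-2 (27.7-fold), as 1 unbroken peak in each list. Its best summits in the 2 libraries lay 6 bp apart, and the nearest control peak was 41.8 kb away. The second, chr13:45779293-45782521, was called over 3109 and 2977 bp with summits 81 bp apart. The third, chr11:35649599-35655256, was 1 peak of 5658 bp with siRNA-1 and 2 peaks with 3193 bp in all with siRNA-2, with summits 16 bp apart. The fourth, chr1:214738296-214744941, had the longest siRNA-2 call of all gained regions, with 6646 bp called with siRNA-1 and 5971 bp with siRNA-2.

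Among the 15 strongest, the highest point was in most cases at the same place with both siRNAs. In 11 of the 15 the best summits were within 100 bp, and in 3 they were over 500 bp apart. These 3 were chr2:181519869-181523051 (735 bp), chr4:1316233-1320051 (1345 bp) and chr2:175835259-175839927 (1642 bp). The closest summits were those of chr6:123016467-123018141, 1 bp apart, and of chr2:217235372-217239880, 2 bp apart. The former was the shortest of the strong regions by the siRNA-1 call, with 1637 bp against 1396 bp with siRNA-2, and the latter had 4509 and 3796 bp.

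The remaining strong regions were called over 1.5 kb or more in both lists. In chr16:66414910-66418363 the calls were 3242 bp with siRNA-1 and 3103 bp with siRNA-2. In chr22:26866073-26869264 they were 3192 and 2447 bp, and in chr3:12803720-12806723 they were 3004 and 1564 bp. The region chr21:37848964-37851896 had 2933 and 2266 bp, and a control peak 3.88 kb away, the closest for any of the 15. In chr5:57111095-57113712, with 2600 and 2270 bp, the fold was 14.3 in the siRNA-1 list and 21.2 in the siRNA-2 list. Over the 15, siRNA-1 gave the longer call in 14, and 9 were 1 unbroken peak in both lists.

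Some of the longest gained stretches were 1 piece with siRNA-1 and several with siRNA-2. The region chr7:102474206-102481703 was 1 peak of 7498 bp with siRNA-1 and 6 peaks with 5261 bp in all with siRNA-2. The region chr1:19771695-19778846 was 1 peak of 7152 bp with siRNA-1 and 5 peaks with 4745 bp in all with siRNA-2. In chr4:169477693-169483233 the order was the other way, with 4642 bp for siRNA-1 and 5305 bp for siRNA-2, in 2 peaks each. The strongest region, chr3:13256107-13262115, was also among the 5 longest and was 1 unbroken peak in each list. Over all gained regions, 551 (83.2%) were a single peak with siRNA-1 and 384 (58.0%) with siRNA-2. Among longer kept regions these shares were 77.4% and 65.7%.

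**Figure D2:**
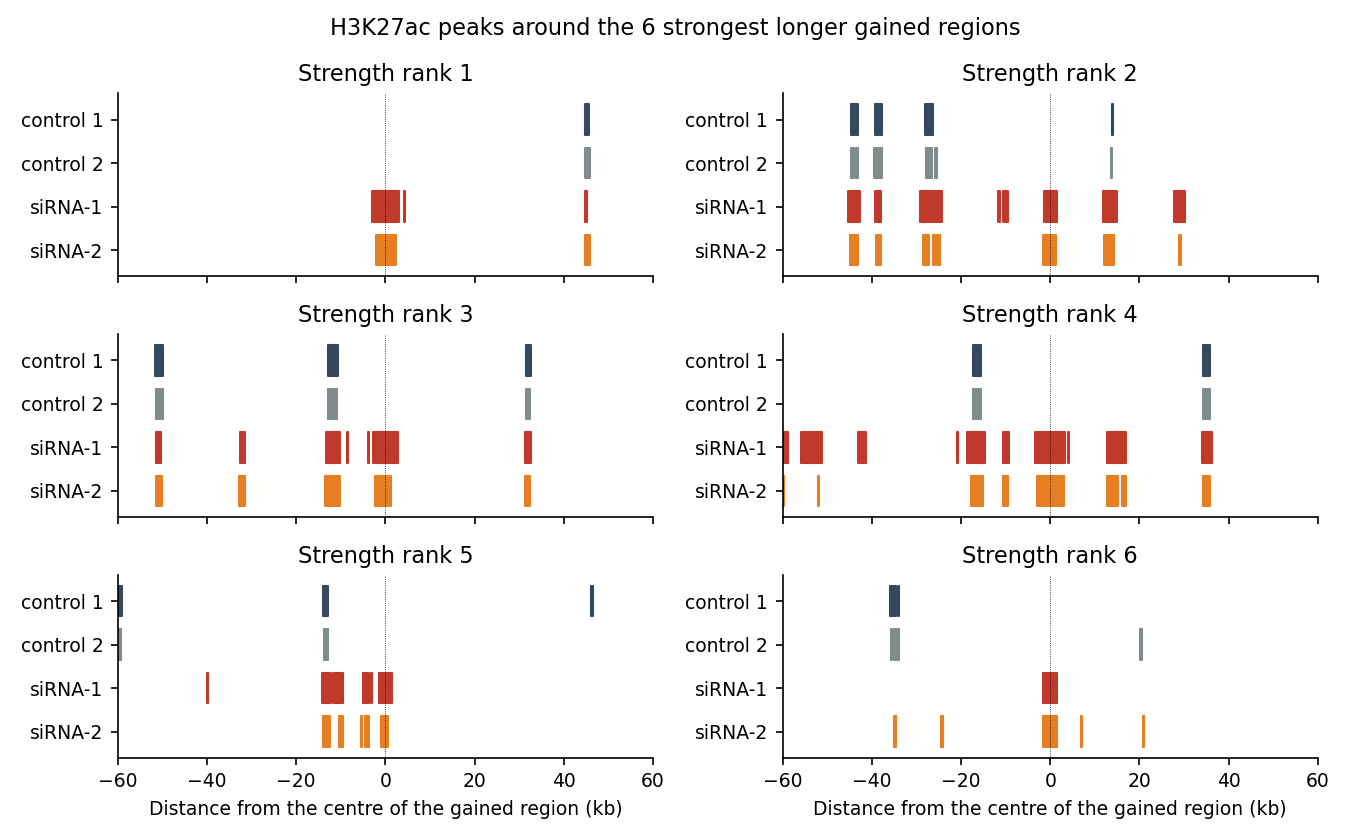
H3K27ac peaks of the 4 libraries within 60 kb of the centre of each of the 6 strongest longer gained regions (x axis, kb from the centre; rows, libraries; boxes, called peaks). At the centre both knockdown libraries have peaks and both controls have none. Around the region of rank 4 siRNA-1 has 16 peaks, the most of the 6, and siRNA-2 has 10, against 2 in each control. Around rank 1 each siRNA has 3, against 2 in each control. Around rank 6 siRNA-1 has 1 and siRNA-2 has 5, against 2 in control 1 and 4 in control 2. The counts include the gained regions themselves.

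The rule did not use summit positions. The best summits with siRNA-1 and siRNA-2 were within 100 bp in 331 of 662 gained regions (Wilson 95% interval 46.2 to 53.8%) and within 500 bp in 485 (73.3%, 69.8 to 76.5%). Another 70 regions (10.6%) had summits over 200 and up to 500 bp apart, and 146 (22.1%) had them over 500 and up to 900 bp apart. The intervals count regions and cover counting error alone; they are no measure of replicate error. In 4306 kept regions of like width (1700 to 2578 bp, the middle 50% of gained widths), 2585 had summits within 100 bp. Within 500 bp the share in these kept regions was 84.5% (83.4 to 85.5%). It was lower in the 330 gained regions of that width, at 71.5% (66.4 to 76.1%). In the kept regions of like width, 11.3% lay over 200 and up to 500 bp apart and 13.5% over 500 and up to 900 bp apart. In longer lost regions, between control 1 and control 2, 41.9% of summits lay within 100 bp, and the other 2 classes held 16.1% and 17.4%. No test of these differences was made.

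Regions that a list broke into 2 peaks had neighbouring summits at a like spacing. In the 102 gained regions with 2 peaks in the siRNA-1 list, the summits were a median of 737 bp apart (middle 50%, 634 to 944 bp), with an uncalled stretch of median 175 bp between the pieces. In the 225 such regions of the siRNA-2 list the median spacing was 782 bp and the uncalled stretch 187 bp. Kept regions of like width had a spacing of 752 bp with siRNA-1 and 736 bp with siRNA-2, and longer lost regions one of 817 bp in control 1 and 856 bp in control 2. Where both lists had a single peak, 79.1% of 292 gained regions had best summits within 500 bp, against 68.6% of the 370 others.

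**Figure D3:**
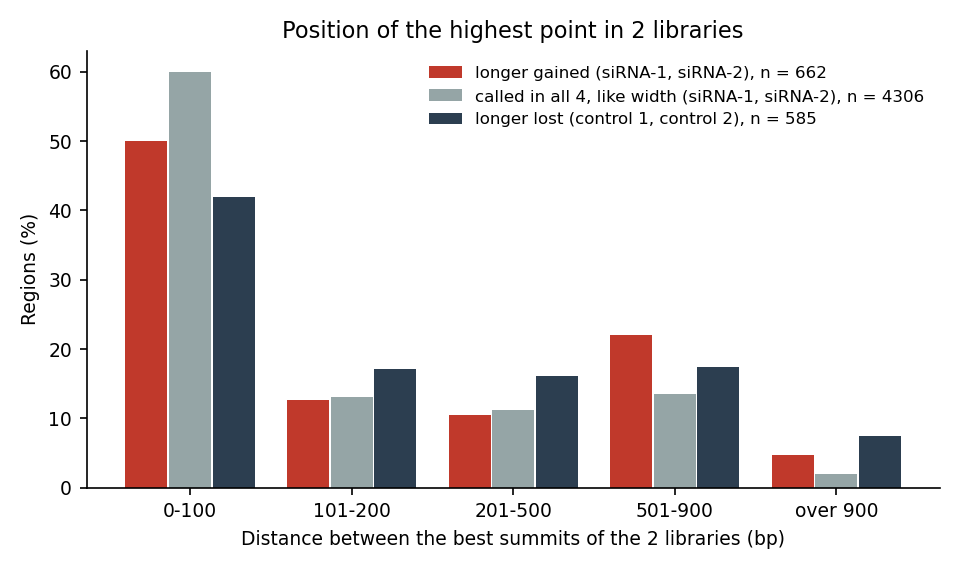
Share of regions (y axis, %) by the distance between the best summits in the 2 libraries of a treatment (x axis, classes in bp), for longer gained regions, kept regions of like width and longer lost regions. In each set the class within 100 bp is the highest, and gained regions have 22.1% over 500 and up to 900 bp apart.

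Gained regions lay at widely varying distances from control peaks. The nearest control peak was 0.092 to 2484 kb away, with a median of 17.1 kb and a middle 50% from 5.02 to 43.5 kb. It was 5 kb or more away for 497 regions (75.1%), 50 kb or more for 146 (22.1%, Wilson 95% interval 19.1 to 25.4%) and 100 kb or more for 69 (10.4%). The mirror measure, from longer lost regions to the nearest knockdown peak, had a median of 12.2 kb, with 18.3% at 50 kb or more (15.4 to 21.6%). The knockdown lists hold more peaks than the control lists, and the part of this in the distances was not tested. The 146 regions at 50 kb or more had median calls of 1950 bp with siRNA-1 and 1660 bp with siRNA-2. The 165 regions with a control peak under 5 kb away had 1820 and 1543 bp, so calls differed little in length with isolation.

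**Figure D4:**
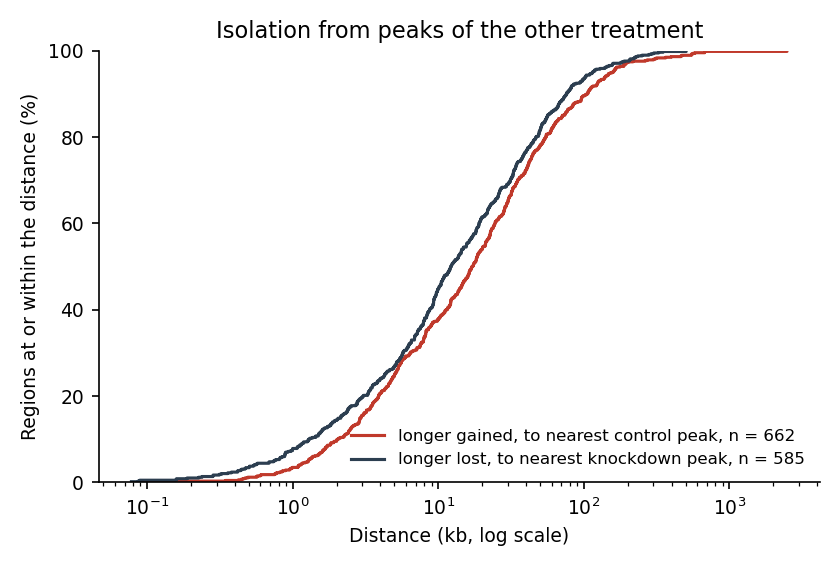
Cumulative share of regions (y axis, %) by distance to the nearest peak of the other treatment (x axis, kb, log scale). Longer gained regions, measured to control peaks, have a median of 17.1 kb, and longer lost regions, measured to knockdown peaks, one of 12.2 kb.

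The 5 most isolated regions ranked from 111 to 601 in strength. The farthest, chr5:49598506-49599763, lay 2484 kb from any control peak and was called over 1258 bp with siRNA-1 and 1021 bp with siRNA-2. Next came chr4:81047014-81049419 at 677 kb, with 1834 and 2391 bp, and chr4:172800659-172802624 at 675 kb, with 1069 and 1966 bp. The region chr18:59273327-59275194 lay 579 kb away, with 1035 and 1868 bp, and chr7:119303796-119306054 lay 561 kb away, with 2259 and 1823 bp. In 3 of the 5, siRNA-2 gave the longer call. These 5 lay 562 to 2484 kb from any region that all 4 libraries shared.

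In places several gained regions lay side by side. Of the 662, 144 (21.8%) had another within 100 kb, and among longer lost regions 20.3% had another longer lost region that near. In 14 groups 3 or more gained regions were joined by gaps of 100 kb or less, 46 regions in all. In 5 of these groups neither control had a peak over the whole span, in 6 no region was called in all 4 libraries, and 1 group held a lost region. The spans contain the gained regions themselves, so the gaps between treatments given for them are in part the rule. The largest group had 5 members over 151 kb (chr10:17007393-17158632). Its members had called lengths of 11.5 kb for siRNA-1 and 9.51 kb for siRNA-2, and lay 84.2 to 147 kb from the nearest control peak.

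The other groups with no control peak had 3 members each. The span chr10:3781663-3806291 had 9.47 kb called with siRNA-1, and 5.16 kb in the siRNA-2 list. The span chr1:214730943-214757167, which holds the region of rank 4, had 11.1 and 9.48 kb. In chr7:131309625-131319246, where 3 regions lay within 9.62 kb and 143 kb or more from any control peak, the calls were 6.25 and 6.45 kb. In chrX:19714890-19742364 they were 5.33 and 4.46 kb. The span chr5:148291701-148365099 came close to this, with 12.4 and 8.96 kb after knockdown, no peak in control 1 and 1 peak of 0.274 kb in control 2.

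Elsewhere gained regions lay among peaks that the controls also had. The span chr14:51908710-52022975, with 4 members, had 15.4 kb called with siRNA-1, and 12.2 kb in the siRNA-2 list, against 0.262 and 0.253 kb in the controls. The span chr4:169477693-169558649 had 25.6 and 21.8 kb after knockdown, against 5.71 and 4.51 kb. The span chr10:79048889-79262437, with 4 members over 214 kb, had 21.2 and 17.6 kb, against 7.68 and 8.30 kb. In these 3 spans, and in the other groups with a control peak in the span, each knockdown value was more than 2 times each control value. The knockdown values include the members, which have no control peak by the rule, so this multiple is not a separate result. Members made up 11.8, 8.73 and 9.53 kb of the siRNA-1 values of the 3 spans, in order. Of the siRNA-2 values they made up 9.73, 8.19 and 7.72 kb. The multiple was not computed without the members. The span chr2:37880614-38010533 had 23.4 and 17.9 kb, against 7.97 and 8.20 kb. The span chr11:72896267-73001008, the one with a lost region inside, had 13.4 and 7.91 kb, against 3.12 and 2.08 kb.

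In 2 of the last 3 groups siRNA-2 had the longer call, unlike in most gained regions. The span chr12:115352290-115438904 had 9.46 kb with siRNA-1, and 10.7 kb in the siRNA-2 list, against 1.82 and 2.59 kb in the controls. The span chr14:94407077-94494778 had 10.8 and 13.7 kb, against 2.33 and 2.06 kb. The span chr17:62689654-62730343 had 10.6 and 8.79 kb, against 2.05 and 1.57 kb.

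Regions called in all 4 libraries were not themselves chosen by the rule, and those near gained regions had in sum longer calls after knockdown in both libraries. There were 1031 such kept regions within 50 kb of a gained region. Their called length was 2545 kb in control 1, 2420 kb in control 2, 3397 kb for siRNA-1 and 2951 kb for siRNA-2. Both knockdown libraries lay above both controls, with 3174 ± 315 kb (mean ± SD, n = 2) against 2482 ± 88.2 kb (n = 2). The difference was 27.9%, with an exact permutation p of 0.333 (two-sided), the smallest that 2 libraries against 2 can give. This p cannot test the difference, because the neighbours were picked by closeness to regions that the same labels had chosen. The comparison was made after the data were seen. Over all 24133 kept regions, called length was 56509 ± 3815 kb after knockdown and 56275 ± 2484 kb in controls (mean ± SD, n = 2 each), a difference of 0.42% that lay within the spread between libraries. Near gained regions, siRNA-1 was 33.5% above control 1 and siRNA-2 21.9% above control 2. The difference was 15.8% without siRNA-1, with the gained regions chosen again from the remaining lists.

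Counted region by region, 537 of the 1031 (52.1%) had both knockdown lengths above both control lengths, and 113 had both below. Over all kept regions 26.9% were above and 25.6% below. Around the longer lost regions the balance was the other way. There 134 of 992 kept regions (13.5%) were above and 508 (51.2%) below, and called length differed by -18.5%. Of the 467 gained regions with a kept region within 50 kb, 312 (66.8%) had a summed kept length above both controls with both siRNAs, 39 (8.35%) had it below, and in 116 the treatments overlapped. Gained regions that lie close together can share the same kept regions, so these counts are not independent. No matching count around other regions is given.

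The difference was greatest in the nearest class and smaller in each class farther away. Kept regions within 10 kb of a gained region were 43.3% longer after knockdown (283 regions). The difference was 22.2% at 10 to 50 kb, 11.5% at 50 to 100 kb, 5.20% at 100 to 250 kb and 0.91% at 250 to 500 kb. From 500 to 1000 kb it was -1.87%, and beyond 1000 kb -2.45%. In each class up to 100 kb both knockdown libraries lay above both controls. At 100 to 250 kb the treatments overlapped, with 4299 kb for siRNA-2 against 4515 kb in control 1. No test of this trend was made.

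**Figure D5:**
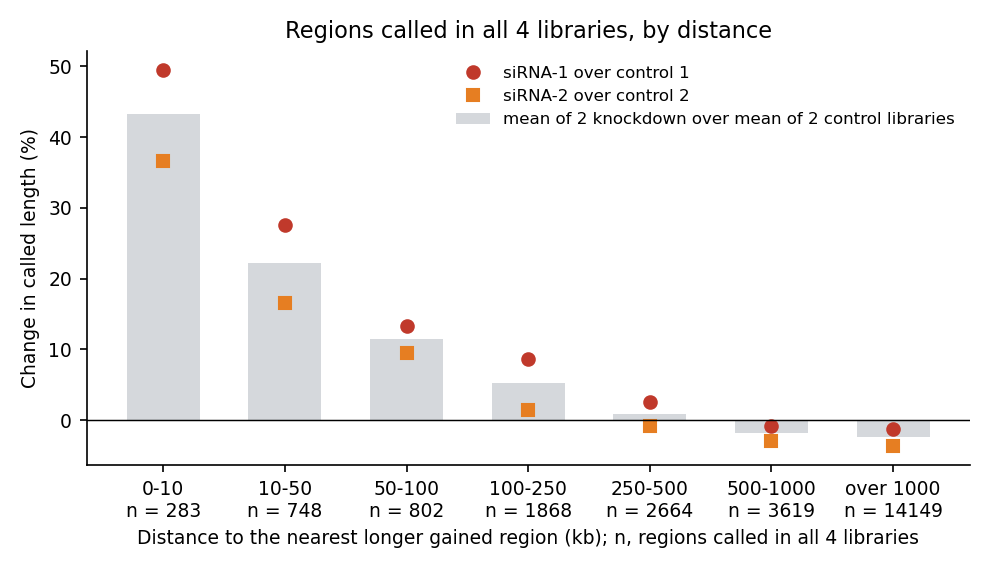
Difference in called length of regions called in all 4 libraries (y axis, %) by distance to the nearest longer gained region (x axis, classes in kb with the number of regions). Bars compare the means of the 2 knockdown and 2 control libraries, and points compare siRNA-1 with control 1 and siRNA-2 with control 2; bars go from 43.3% within 10 kb to 0.91% at 250 to 500 kb.

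Among the 15 strongest gained regions, 14 had a kept region within 50 kb. In 9 of these the summed kept length was above both controls with both siRNAs, in 1 it was below, and in 4 the treatments overlapped. Near chr16:66414910-66418363, 2 kept regions had 1625 and 686 bp in the controls, against 5003 bp with siRNA-1 and 4887 bp with siRNA-2. Near chr7:102474206-102481703, 1 kept region had 3480 and 3136 bp in the controls, against 6673 and 5626 bp. Near chr13:45779293-45782521, 4 kept regions had 5095 and 4346 bp, against 9911 and 6151 bp. In these places both knockdown calls lay above both controls. Near chr6:123016467-123018141 the 1 kept region was shorter after knockdown, with 3537 and 3555 bp in the controls against 3321 and 3043 bp. Near the strongest region of all it had 412 and 320 bp in the controls and 350 and 453 bp after knockdown, so the treatments overlapped.

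Kept regions near single members of the groups differed by varying amounts. Near chr4:169477693-169483233, 4 kept regions had 11059 bp in control 1 and 9495 bp in control 2, against 23653 bp with siRNA-1 and 23306 bp with siRNA-2. Near another member of that group 5 kept regions differed less, with 8551 and 6540 bp in the controls against 16386 and 13991 bp. In the group at chr14:51908710-52022975, a kept region was called over 262 and 253 bp in the controls and over 2576 and 2499 bp after knockdown. In the group at chr17:62689654-62730343, 2 kept regions near the strongest member had 4469 and 3715 bp in the controls against 10044 and 9392 bp. In the group at chrX:19714890-19742364 the values were closer, with 5999 and 5045 bp in the controls and 6599 and 6223 bp after knockdown. These examples were picked with their values in view.

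Shorter gained regions also lay near the longer ones. Of the 3441 regions in both knockdown lists and neither control that missed the length threshold, 354 (10.3%) lay within 50 kb of a longer one. The share was 4.27% for kept regions (1031 of 24133), 1.46% for regions called in both controls only (62 of 4250) and 0.855% for longer lost regions (5 of 585). Over all merged regions other than the 662 it was 5.05%. Seen from the longer gained regions, 270 (40.8%) had a shorter gained region within 50 kb, 467 (70.5%) a kept region and 49 (7.40%) a region called in both controls only. In the mirror measure, 277 of 585 longer lost regions (47.4%) had a shorter lost region within 50 kb, so such closeness was not particular to gained regions. These shares were not tested, and peaks called apart in 1 stretch are not independent.

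Gained regions were found on all 23 chromosomes examined. Chromosome 1 had the most, 57, followed by chromosome 2 with 50 and chromosome 5 with 49. As a share of the regions with 1000 bp or more in both knockdown lists, they ranged from 2.52% on chromosome 19 (15 of 596) to 6.31% on chromosome 14 (34 of 539). The 2 groups on chromosome 14 hold 7 of its 34. No test was made over chromosomes.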

How the data were processed

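MACS2 2.2.7.1, SAMtools 1.7.0 and BWA 0.7.17 were used with build hg19, per the submitters' processing notes. Options, and whether the inputs entered peak calling, are not stated in these sources. The authors deposited 1 peak list per library (101-base reads), with peak start, end and summit, a fold enrichment (a linear ratio), −log10 p, −log10 q and a score, which was not used. The highest q in the lists was 0.0498, and the lists carry no read counts.

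Peaks were merged where they overlapped by 1 bp or more (Python 3.11.15, pandas 2.3.3). Called length is the sum of a library's peak lengths in a region, and the best summit is that of its peak with the highest −log10 q. Distances run between edges. The regions and the rules for naming them were chosen with earlier results of these data known. Named regions were the 15 strongest, the 5 longest, the 5 farthest from a control peak, groups of 3 or more, and 5 on each side of the threshold. Shares carry Wilson 95% intervals. The merging and the distances were tested on simulated data. Nearest genes, gene and marker lists, distances to gene starts, motifs and sequences need an hg19 reference and are not analysed here.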

Additional observations from a re-analysis of the deposited data

Results flagged for a closer look

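Outside chromosomes 1 to 22 and X, which the report covers, 1 of 227 merged regions met the same rule. It lay on the decoy sequence of the genome build, was called over 1191 bp with siRNA-1 (5.14-fold) and 1610 bp with siRNA-2 (11.3-fold), and had no control peak. It was singled out because it is a signal outside the chromosomes compared. Of the 227 regions, 18 were called in both knockdown lists only and 25 in both control lists only.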

How the results depend on the processing

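The count of 662 stayed within 1.5 times under other merging distances, −log10 q thresholds, a 1 kb control margin and equal called length (484 to 888). It was 1628 with a minimum of 500 bp and 114 with 2000 bp. Leaving out each library gave 842 to 1622, the highest without siRNA-2; a region then needs 1 knockdown list only. Summits of the 2 siRNAs were within 200 bp in 62.7% and within 1000 bp in 96.7%, and within 500 bp in 73.3 to 74.1% without each control. The nearest control peak was 10 kb or more away for 62.1% and 100 kb or more for 10.4%. At 50 kb or more the share was 14.98 to 25.2% without each library. The difference of kept neighbours was examined after seeing the data. It was 43.3% within 10 kb, 20.7% within 100 kb, 23.5% with equal called length, 21.2% where every library reached a −log10 q of 10, and 15.8 to 32.1% without each library; why it was lower without siRNA-1 was not tested. With the number in the labels as a replicate block it was 27.6%, and with 2 pairs the numbers cannot be shown to pair the libraries. The planned shares near gene starts and with motifs were not run. Unknown depth limits what a missing control peak shows.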
